A study of Mus musculus with 11 samples.

Results

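The comparison described here sets 720 T-ALL cells exposed to AI-9-54 at 50 µM against the same cells exposed to AI-7-54 at 100 µM, both for 8 h. The 720 line is a mouse T-cell acute lymphoblastic leukaemia line, derived per the labels from a Tcf12+/- mouse that carried a Tal1 transgene under the Lck promoter, so every sample shares that genotype. The compounds are named in the labels as inhibitors of the Runt domain, the part of RUNX transcription factors that binds DNA. Arrays were chosen by their titles: 4 AI-9-54 arrays (replicates 1 to 4) and 3 AI-7-54 arrays (replicates 1, 3 and 4), 7 of the 11 in the series. The other 4 arrays hold cells exposed to AI-8-45 at 100 µM for 8 h, and they enter the fit only through the shared estimate of the spread. Vehicle-treated cells were not analysed here. The words "higher" and "lower" therefore mean after AI-9-54 relative to AI-7-54 and say nothing of either compound against untreated cells. Because each compound was given at 1 dose and the doses differ, compound and dose cannot be told apart. The samples are 1 cell line, and the labels do not say that replicates were separate cultures, so p-values measure the spread between these samples, which may be technical. All 22180 genes with a probe set of their own were compared, each on the log2 scale of the deposited array values.

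RUNX proteins form a DNA-binding complex with CBFB and, in developing T cells, act on the genes of T-cell identity, antigen-receptor assembly and cytotoxic function. In T-ALL driven by TAL1, the factors TAL1, RUNX1, GATA3 and MYB occupy a common set of enhancers, and NOTCH1 and MYC drive growth. The T-cell identity of the line was visible on all arrays: the 16 measured T-lineage markers had a median level at the 93.7 percentile of all genes. Markers of B-lineage (13), myeloid (15), erythroid and megakaryocytic (8), NK and innate lymphoid (8) and stromal and endothelial cells (13) had median levels at the 27.2 to 48.8 percentiles. Of these 57 other markers, 1 was called, the smooth-muscle actin gene Acta2 (-0.21, limma adjusted p 0.0322). The mean of the B-lineage list ranged from 5.84 to 5.85 on AI-7-54 arrays and from 5.82 to 5.94 on AI-9-54 arrays, and that of the myeloid list from 6.12 to 6.17 and from 6.12 to 6.15. The part of other cells in the results below was not tested beyond these values, and in bulk RNA fewer cells of a type and less RNA per cell cannot be told apart. Lck and Rag1, although T-lineage markers, had no probe set with a single symbol and were not analysed here.

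In limma's fit, 3139 genes differed between the compounds at a Benjamini-Hochberg adjusted p under 0.05, which is 14.2% of the genes tested. Of these, 1523 were higher (6.87% of all genes) and 1616 lower (7.29%) after AI-9-54, and genes past this threshold are named as called below. Most differences were small: the median size was 0.31 on the log2 scale, 242 genes were higher and 286 lower by at least 0.5, and 36 were higher and 21 lower by at least 1. The 4 AI-9-54 arrays lay entirely above the 3 AI-7-54 arrays for 1474 of the genes called higher (this held for 11.3% of all genes) and entirely below for 1586 of those called lower (12% of all genes). As 3060 of the 3139 called genes were separated in this way, a separation named for a called gene below adds little to its call. Replicates 1 and 2 stood apart from replicates 3 and 4 after AI-9-54. There the SD of the difference between 2 arrays was 0.12 within either set and 0.16 to 0.18 between sets. Replicate 2 has no AI-7-54 array, and AI-7-54 replicate 1 lay farther from 3 and 4 (0.15 and 0.14) than these from each other (0.11). The AI-8-45 arrays did not split cleanly, as replicate 4 was as far from 1 as from 3 (0.147 each). The difference had the same sign within both replicate sets for all 3139 called genes. Where the groups do not overlap that sign is fixed in advance, so this does not test the effect of the replicate split. With 1 array left out the count ranged from 2103 (without AI-7-54 replicate 3) to 3290 (without AI-8-45 replicate 3). Of the 3139 genes, 1729 were called in all 11 of these fits.

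**Figure D1:**
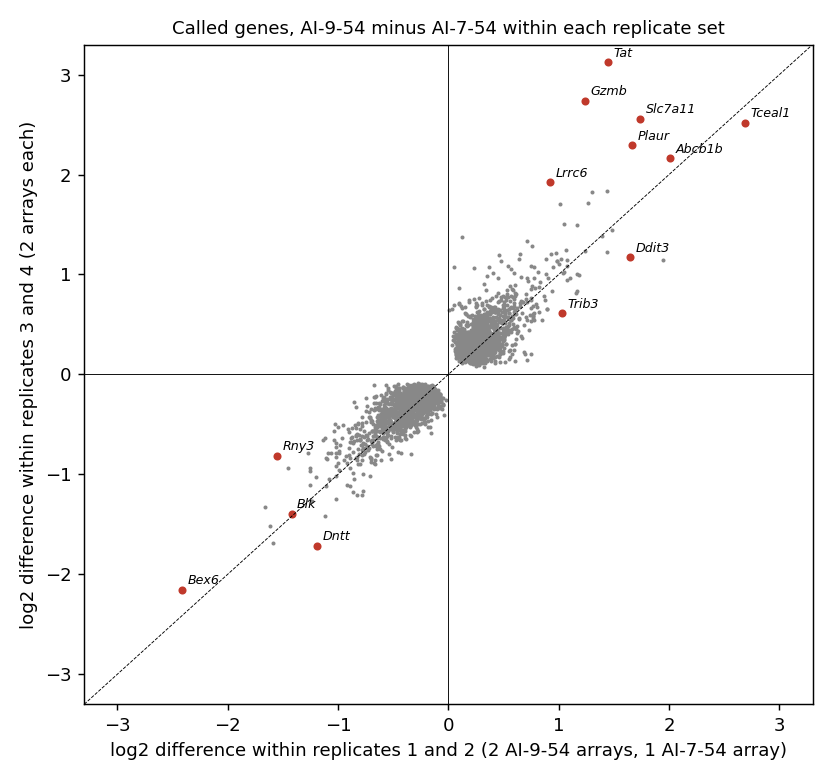
Each point is a called gene, with the log2 difference (AI-9-54 minus AI-7-54) within replicates 1 and 2 on the horizontal axis and within replicates 3 and 4 on the vertical axis; the dashed line marks equal values. All 3139 points have the same sign on both axes, and Tat and Gzmb lie farthest above the line, with larger differences within replicates 3 and 4.

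The efflux pump gene Abcb1b and 7 genes beside it on mouse chromosome 5 were all higher after AI-9-54. Abcb1b encodes P-glycoprotein, a membrane pump that exports many drugs. Its level was 8.54, 8.38 and 8.22 on the AI-7-54 arrays and 10.48, 10.62, 10.49 and 10.44 on the AI-9-54 arrays, a 4.37-fold difference (log2 2.13 ± 0.08, SE, limma adjusted p 3.95e-08). Nearly 2 log2 units (1.90) separated the lowest AI-9-54 array from the highest AI-7-54 array. In the gene order of assembly GRCm38.p6, counting measured protein-coding genes, Abcb1b is preceded by Slc25a40 (0.81, adjusted p 0.00095), Rundc3b (1.32, adjusted p 3.95e-08) and the second P-glycoprotein gene Abcb1a (1.00, adjusted p 6.01e-06). It is followed by the phospholipid exporter gene Abcb4 (0.66, adjusted p 4.78e-05), the peroxisomal carnitine octanoyltransferase gene Crot (0.52, adjusted p 1.02e-05), Tmem243 (0.46, adjusted p 0.00485) and Dmtf1 (0.15, adjusted p 0.0207). In each of these 8 genes the lowest AI-9-54 array exceeded the highest AI-7-54 array.

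Within the run the difference was largest at Abcb1b and smallest at Dmtf1. Rundc3b rose from 10.34, 10.45 and 10.36 to 11.76, 11.81, 11.63 and 11.63, and Crot from 9.74, 9.73 and 9.68 to 10.21, 10.25, 10.28 and 10.20. Dmtf1, at the end of the run, moved from 10.26, 10.16 and 10.18 to 10.36, 10.32, 10.35 and 10.35, and 2 of the 11 fits that leave out an array did not call it (highest adjusted p 0.0958). The genes just outside were not called: Dbf4, a kinase regulator of DNA replication that sits next to Slc25a40, differed by 0.07 (adjusted p 0.472), Adam22 by -0.07 (adjusted p 0.397) and Sri by 0.01 (adjusted p 0.929). On the other side Elapor2 differed by -0.02 (adjusted p 0.918) and Grm3 by 0.08 (adjusted p 0.623). Among 18984 measured protein-coding genes with a position, 11 runs of 4 or more neighbours were called in 1 direction. This run of 8 was the longest, and the other 10 held 4 genes each. The mean after AI-8-45 lay between the means of the other compounds at all 8 genes, for example at 9.48 for Abcb1b and 11.18 for Rundc3b. The same held for 2817 of the 3139 called genes, so it is not particular to this run. Transcripts of Abcb1a and Abcb1b are similar in sequence, so their separate values are uncertain. The neighbours were looked up after the values of Abcb1b, Abcb1a and Rundc3b had been seen, and gene copy number was not measured here.

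**Figure D2:**
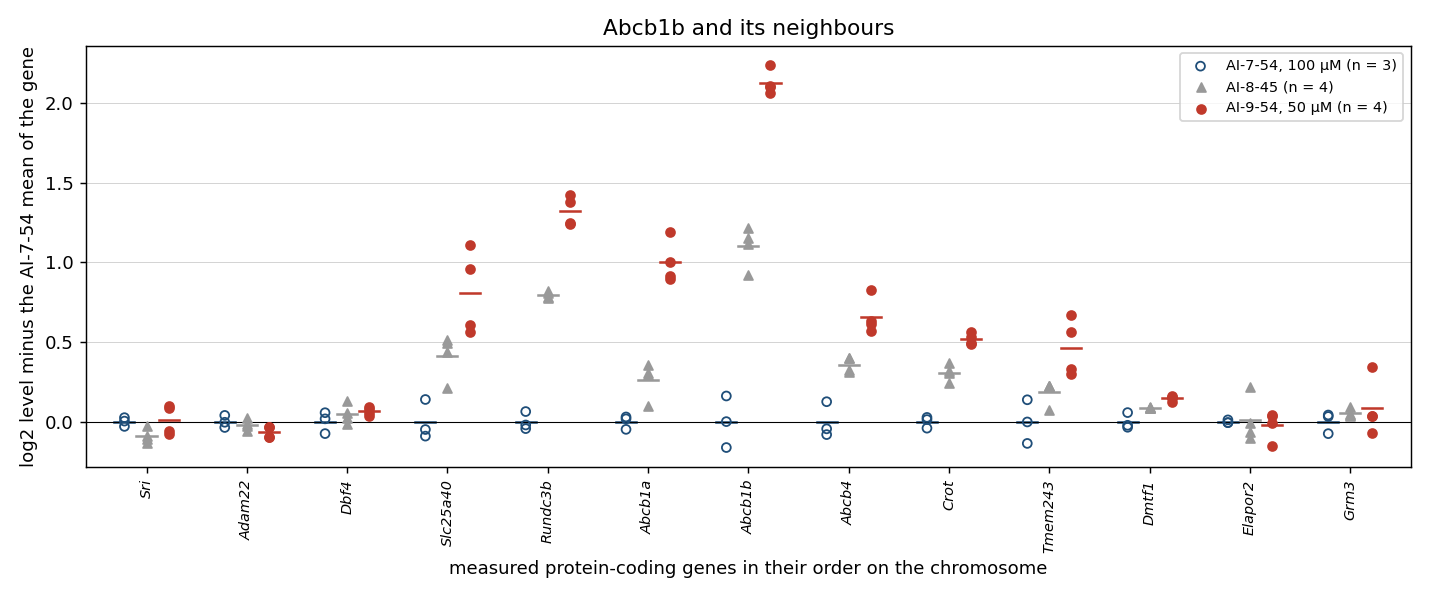
The log2 level on each array minus the AI-7-54 mean of the gene (vertical axis) for Abcb1b and the 6 measured protein-coding genes on either side, in chromosomal order (horizontal axis); open circles are AI-7-54, triangles AI-8-45 and filled circles AI-9-54, with bars at the means. The 8 genes from Slc25a40 to Dmtf1 have all AI-9-54 points above all AI-7-54 points, while the AI-9-54 points of Sri, Adam22, Dbf4, Elapor2 and Grm3 lie within 0.4 of 0.

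Outside that run, the largest rise was that of Tceal1, a member of the TCEAL family of proteins related to transcription elongation factor A. Its level was 7.58, 7.70 and 7.62 after AI-7-54 and 10.21, 10.32, 10.14 and 10.22 after AI-9-54 (limma adjusted p 2.96e-10). It was the only one of 12 measured Tceal and Bex genes called higher, and Bex6 was the only one called lower (-2.20, adjusted p 2.65e-05). Bex6 was at 8.89, 8.52 and 8.24 after AI-7-54 and at 6.42, 6.53, 6.23 and 6.22 after AI-9-54, where its mean lay below the lowest array median of 6.61, so no fold is given for it. Plaur, the urokinase receptor gene, rose from 7.44, 7.34 and 7.16 to 9.13, 9.09, 9.76 and 9.33 (4.03-fold, adjusted p 2.2e-06). The integrin subunit gene Itgb3, which with its alpha partner binds vitronectin, rose as well (1.95-fold, adjusted p 3.17e-05). These belong to a list of 11 measured plasminogen activation and receptor genes, of which 4 were higher and none lower (2 higher without AI-7-54 replicate 3 or 4).

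Other large rises were found for Acer2, an alkaline ceramidase of the Golgi (3.08-fold, limma adjusted p 1.17e-05), and Gpr171, an orphan receptor of the purinergic family (2.58-fold, adjusted p 1.56e-07). The AP-1 gene Fosl2 was 2.58-fold higher (adjusted p 6.96e-05), and the nuclear long non-coding RNA Neat1 was 2.91-fold higher (adjusted p 0.000198). Neat1 lay at 8.59, 8.64 and 8.78 after AI-7-54 and at 9.78, 10.00, 10.54 and 10.54 after AI-9-54, and its neighbouring nuclear RNA Malat1 was higher too (0.42, adjusted p 0.00243). Fam241a (2.72-fold, adjusted p 0.00218) and the cilia assembly gene Lrrc6 (1.42 on the log2 scale, adjusted p 0.00156, dim after AI-7-54) rose as well. Among the large falls, Lipg, the endothelial lipase gene, went from 10.33, 10.25 and 10.20 to 9.14, 9.29, 8.89 and 8.73 (2.38-fold, adjusted p 0.000457). The haematopoietic growth factor gene Clec11a (2.12-fold, adjusted p 5.47e-05), the serine protease gene Prss57 (2.05-fold, adjusted p 1.4e-06) and the adhesion receptor gene Adgrg1 (2.04-fold, adjusted p 1.1e-05) were lower. So were Lsmem1 (2.04-fold, adjusted p 4.88e-05), the acyl-CoA thioesterase gene Acot5 (2.12-fold, adjusted p 7.95e-06) and Fabp5, whose product carries fatty acids in the cytosol (2.28-fold, adjusted p 0.00269). The nucleoside diphosphate kinase gene Nme1 had a wide spread after AI-7-54 (8.74, 7.57 and 8.49), and its call was lost without AI-7-54 replicate 1 or 4 (adjusted p up to 0.0878), as that of the small RNA gene Rny3 was without AI-7-54 replicate 4 (0.083).

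**Figure D3:**
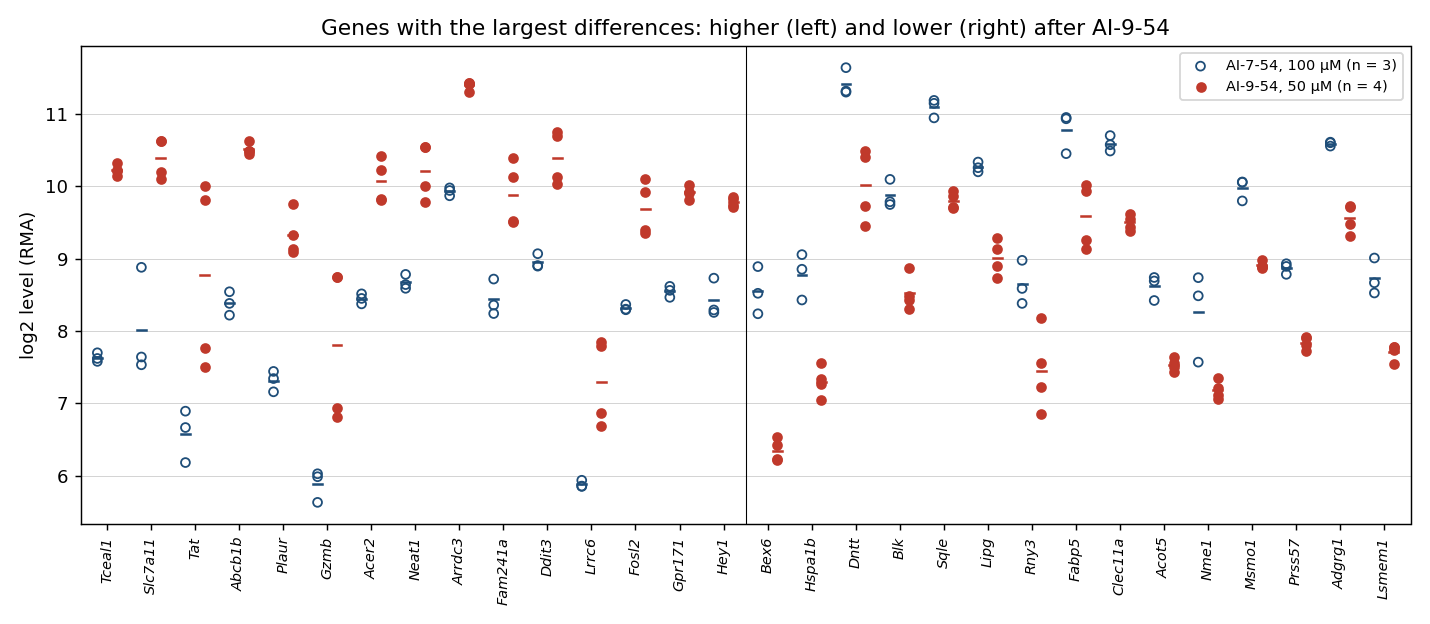
The log2 level on each array (vertical axis) of the 15 genes with the largest rise and the 15 with the largest fall whose groups do not overlap; open circles are the 3 AI-7-54 arrays, filled circles the 4 AI-9-54 arrays, and bars the means. The points of Tceal1, Gpr171 and Arrdc3 lie close together within each group, whereas the AI-9-54 points of Tat and Gzmb split in pairs, at 7.50 and 7.76 against 10.01 and 9.81 for Tat.

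Of 61 functional gene lists, those with the lowest medians held biosynthetic genes and those with the highest held stress and quiescence genes. The median difference over all genes was -0.0014. The sterol synthesis list (-0.69), ribosome biogenesis (-0.44) and purine and pyrimidine synthesis (-0.37) lay farthest below it, and the integrated stress response (0.32) and the FOXO and quiescence list (0.28) farthest above. These are descriptions of the lists, with no test of a list as a whole. Some genes are in more than 1 list: with the marker lists, 1649 resolved entries hold 1565 distinct genes. Counts of called members below are to be read beside the shares over all genes, 6.87% higher and 7.29% lower.

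**Figure D4:**
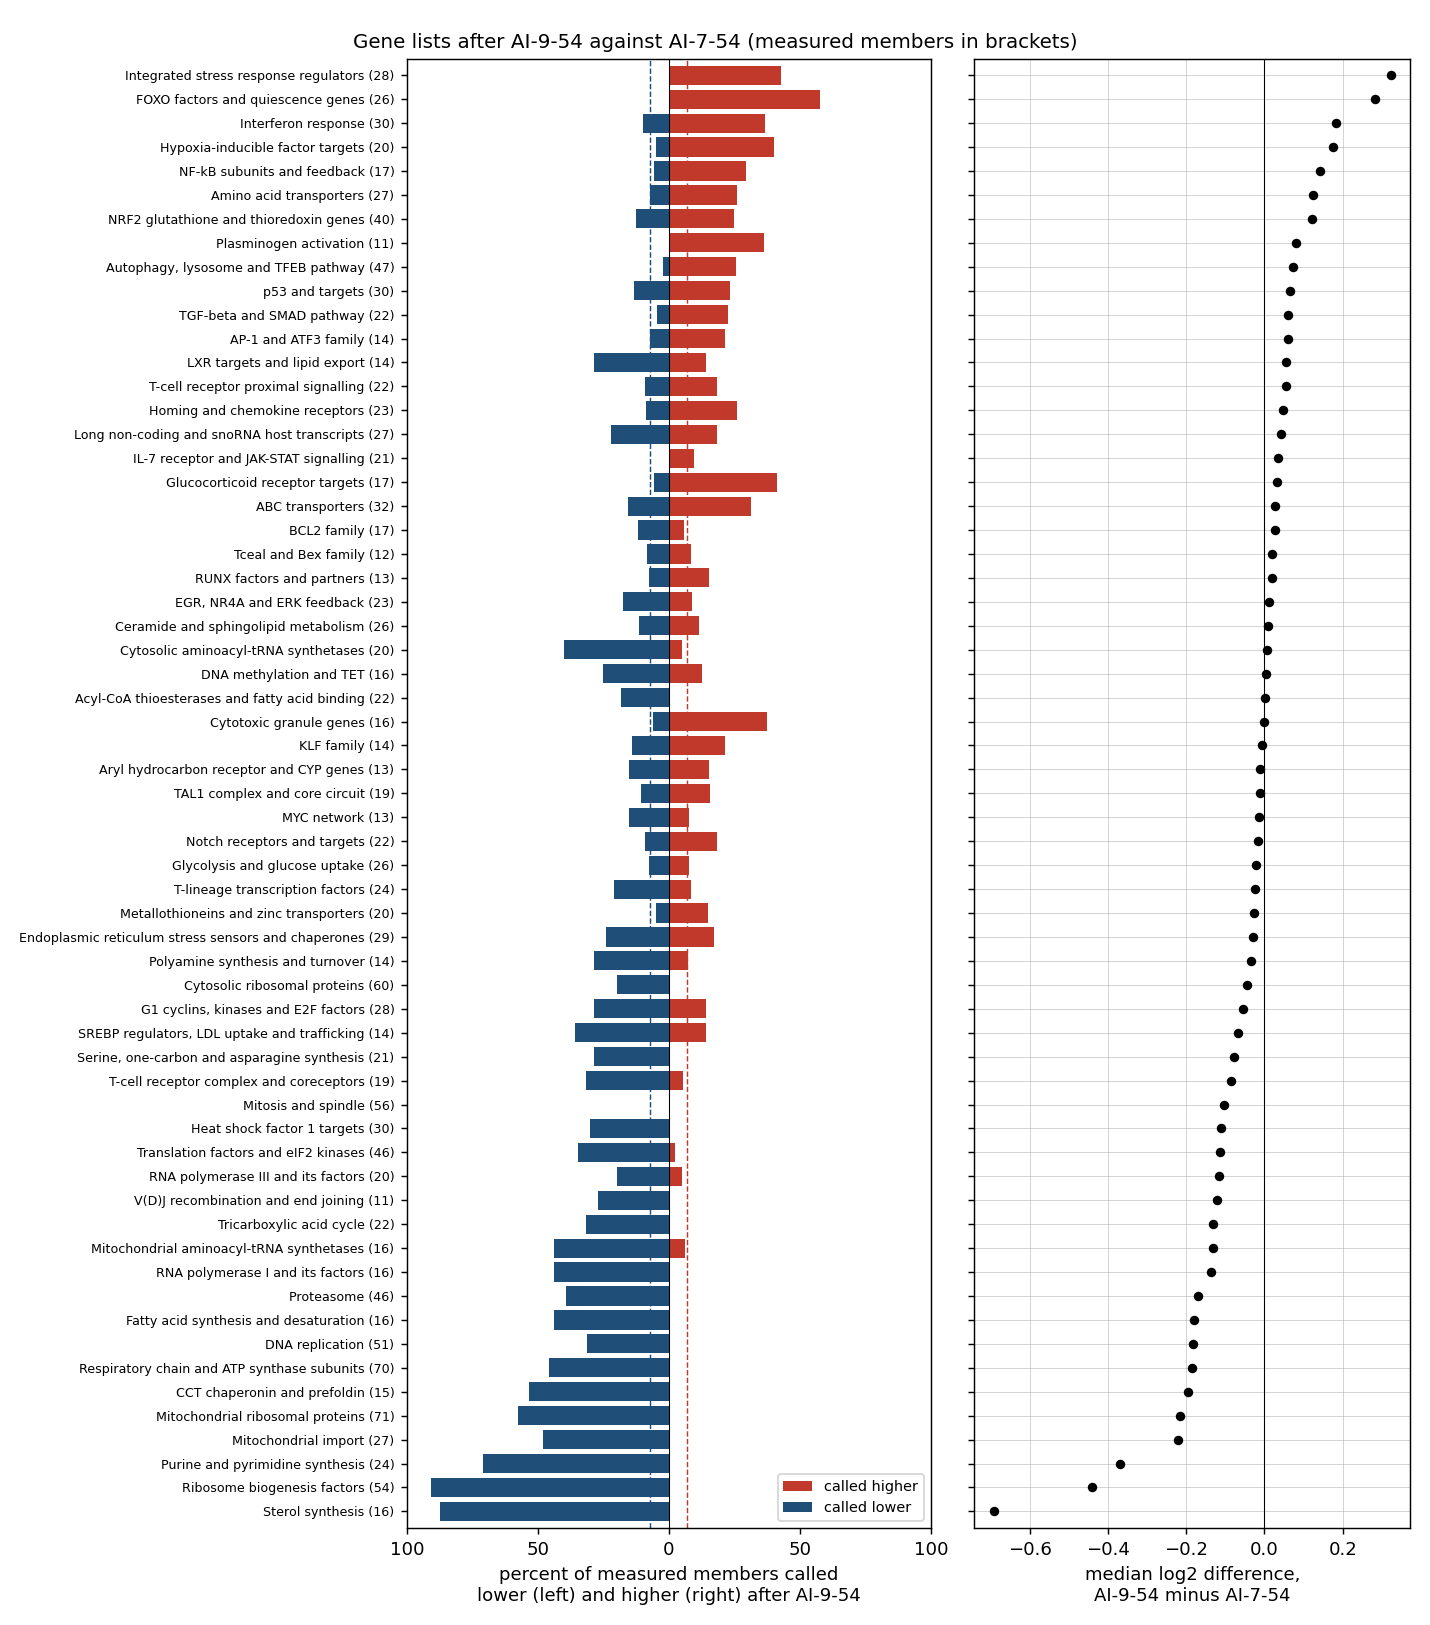
Left, the percent of the measured members of each list that were called lower (to the left) or higher (to the right) after AI-9-54, with dashed lines at the shares over all genes, 7.29% and 6.87%; right, the median log2 difference of the list. Sterol synthesis and ribosome biogenesis have 14 of 16 and 49 of 54 members called lower, and the FOXO and quiescence list has 15 of 26 called higher.

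Several T-lineage marker genes were lower after AI-9-54, while the CD3 subunit genes of the T-cell receptor were not called. Of the 16 measured T-lineage markers 8 were lower and none higher (median -0.33). Without AI-7-54 replicate 1 the count was 5. The co-stimulatory receptor gene Cd2 was at 9.73, 9.30 and 9.32 after AI-7-54 and at 8.71, 8.77, 8.57 and 8.51 after AI-9-54 (1.76-fold lower, limma adjusted p 0.00162). Thy1, the surface glycoprotein CD90, was at 11.31, 11.26 and 11.32 and at 10.75, 10.88, 10.71 and 10.84 (1.42-fold lower, adjusted p 6.12e-05). Neither gene had any overlap between the groups. Cd5, which restrains T-cell receptor signals, differed by -0.60 (adjusted p 0.014, lost without AI-7-54 replicate 1 at 0.0606). By contrast Cd7, a T-cell surface gene outside that list, was higher (0.40, adjusted p 0.000174). The CD3 subunit genes differed by 0.02 (Cd3d), -0.02 (Cd3e) and -0.09 (Cd3g), with adjusted p values of 0.903, 0.859 and 0.236, at levels between 11.65 and 13.07.

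Among genes of antigen-receptor assembly, Dntt, the terminal transferase that adds nucleotides at V(D)J joints, had the largest fall. It lay at 11.63, 11.30 and 11.31 after AI-7-54 and at 10.48, 10.41, 9.45 and 9.73 after AI-9-54 (2.63-fold lower, limma adjusted p 0.00132). Lig4, the ligase that closes those joints, went from 9.67 ± 0.052 (SD, n = 3) to 8.90 ± 0.072 (SD, n = 4), with limma giving a 1.71-fold fall (adjusted p 1.91e-06). The Ku70 gene Xrcc6, which holds the broken ends, was 1.41-fold lower (adjusted p 4.96e-05). These were the 3 of 11 measured recombination and end-joining genes that were called, all of them downward. Ptcra, the invariant pre-T-cell receptor chain, was lower too (8.29, 7.77 and 7.88 against 7.49, 7.58, 7.27 and 7.44, 1.45-fold, adjusted p 0.00709). Receptor-proximal signalling was mixed, with 4 of 22 genes higher and 2 lower. The Src-family kinase gene Blk fell from 10.09, 9.78 and 9.75 to 8.48, 8.86, 8.31 and 8.43 (2.55-fold, adjusted p 1.22e-05). The Tec-family kinase gene Txk (1.55-fold, adjusted p 0.00332) and the adaptor gene Sla2 (1.36-fold, adjusted p 0.000162) rose. The 4 and 2 were 2 without AI-7-54 replicate 3 and 1 without AI-7-54 replicate 1.

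Among 24 T-lineage transcription factor genes, 5 were lower and 2 higher (3 lower without AI-7-54 replicate 4). Bcl11b, which commits progenitors to the T lineage, was at 12.24, 12.11 and 12.15 after AI-7-54 and at 11.76, 11.81, 11.71 and 11.80 after AI-9-54 (1.32-fold lower, limma adjusted p 0.000143). Sox13, a factor of gamma-delta T cells, was 1.61-fold lower (adjusted p 5.5e-05) and Ets2 1.38-fold lower (adjusted p 0.000257). The chromatin organiser gene Satb1 was 1.46-fold higher (adjusted p 0.000179) and the Ikaros-family gene Ikzf2 1.37-fold higher (adjusted p 0.00186). Gata3 was lower by a log2 difference of -0.33 (adjusted p 0.0404), and 5 of the 11 fits that leave out an array did not call it (highest adjusted p 0.149).

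**Figure D5:**
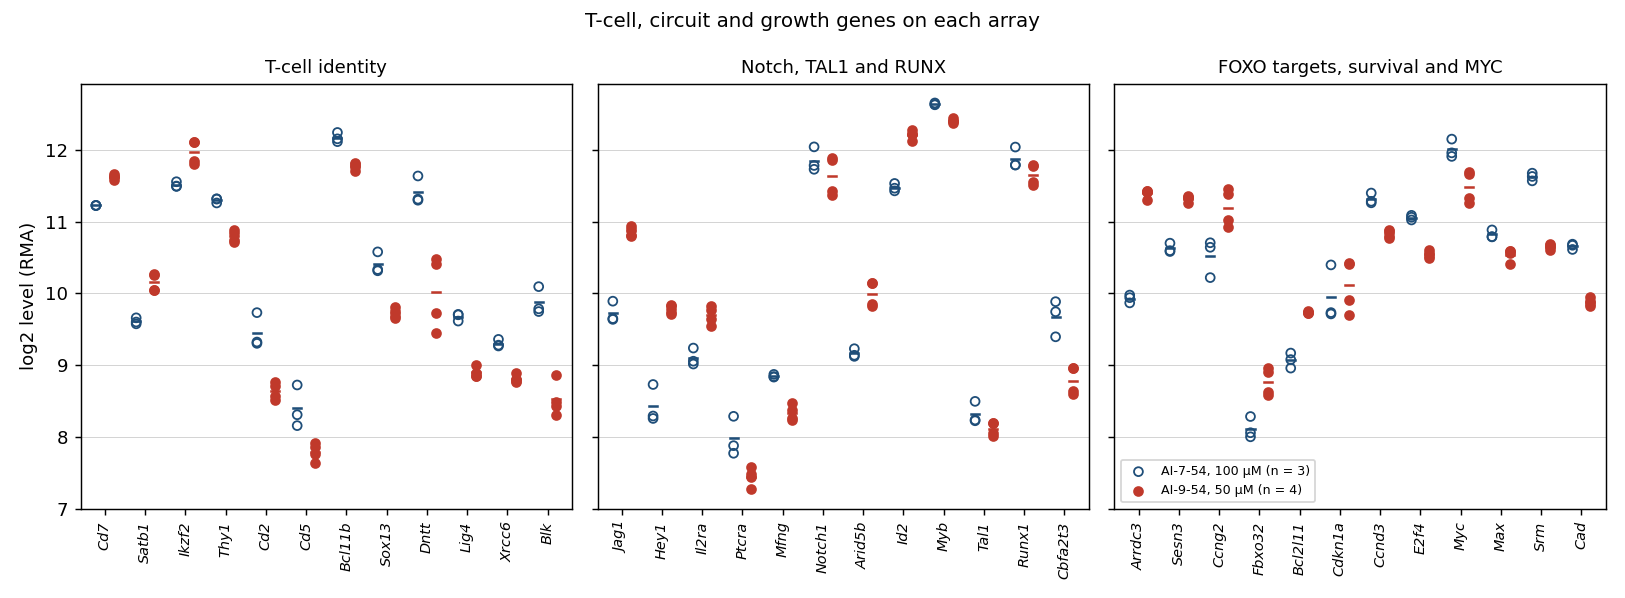
The log2 level on each array (vertical axis) of T-cell identity genes, of Notch, TAL1 and RUNX genes, and of FOXO target, survival and MYC-related genes; open circles are the 3 AI-7-54 arrays, filled circles the 4 AI-9-54 arrays, and bars the means. Thy1, Cd2, Lig4, Jag1, Hey1, Id2, Arrdc3, Sesn3 and Cad show no overlap between the groups, while Notch1 and Cdkn1a overlap.

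The genes for the RUNX factors measured here and for their partner were not called. Runx1 was at 12.04, 11.79 and 11.79 after AI-7-54 and at 11.78, 11.77, 11.51 and 11.55 after AI-9-54 (-0.22 ± 0.09, SE, limma adjusted p 0.157). With the replicate number as a block its difference was called (-0.25, adjusted p 0.00319). Runx3 differed by 0.03 (adjusted p 0.906, 95% interval -0.15 to 0.20) and Cbfb, the common partner subunit, by 0.02 (adjusted p 0.85, -0.06 to 0.10). Of 13 measured RUNX factors and cofactors, 1 was lower, near the 7.29% of all genes. This was Cbfa2t3, a corepressor of the ETO family (1.85-fold, adjusted p 0.00325). The coactivator gene Crebbp was higher (0.20, adjusted p 0.0064), as was Ep300 (0.22, adjusted p 0.0195, not called in 4 of those 11 fits). Each of AI-7-54 replicates 1 and 3 and AI-9-54 replicates 3 and 4, left out, reduced these 2 rises to 1. Promoters of called genes held a RUNX site (TGTGGT or TGCGGT, either strand, in the 300 bases from 250 before to 50 after the start) about as often as others: 26% of 1193 genes called higher, 23.7% of 1293 called lower and 23.8% of all 16990 genes with a promoter in RefSeq's GRCm38.p6 annotation.

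Of 19 measured genes of the TAL1 circuit list, 3 were higher (Arid5b, Id2 and Ssbp2) and 2 lower by small differences (Myb and Gata3). Over all genes 6.87% were higher and 7.29% lower. Arid5b, a chromatin cofactor in T-ALL, was at 9.12, 9.14 and 9.23 after AI-7-54 and at 9.85, 9.83, 10.15 and 10.14 after AI-9-54 (1.78-fold, limma adjusted p 8.05e-05). Id2, which binds E proteins and keeps them from DNA, went from 11.53, 11.43 and 11.46 to 12.27, 12.22, 12.22 and 12.12 (1.67-fold, adjusted p 3.15e-06). Both groups of arrays were fully separated in either gene. Myb was lower by -0.23 (adjusted p 0.0014), Tal1 differed by -0.20 (adjusted p 0.078) and Tcf12 by -0.03 (adjusted p 0.754). The 2 falls became 1 without any single one of AI-7-54 replicates 3 and 4 or AI-9-54 replicates 1 and 2.

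Genes of the Notch list moved in both directions. Jag1, a Notch ligand, rose from 9.89, 9.64 and 9.65 to 10.80, 10.93, 10.90 and 10.81 (2.2-fold, limma adjusted p 3.05e-06). Hey1, a repressor that Notch induces in many tissues, rose from 8.73, 8.29 and 8.26 to 9.82, 9.73, 9.84 and 9.71 (2.55-fold, adjusted p 1.22e-05). Il2ra, the alpha chain of the interleukin-2 receptor, was 1.51-fold higher (adjusted p 0.00086) and the coactivator gene Maml2 1.35-fold higher (adjusted p 0.00364). Mfng, a glycosyltransferase that modifies Notch receptors, was 1.43-fold lower (adjusted p 6.77e-05), as was Ptcra above. Other targets of the list were not called, among them Hes1 at 0.12 (adjusted p 0.714), Dtx1 at 0.13 (adjusted p 0.262) and Nrarp at -0.05 (adjusted p 0.875). In all, 4 of 22 were higher and 2 lower (4 lower with the replicate block). One of those 2 more was Notch1, which lay at 12.04, 11.78 and 11.73 against 11.86, 11.89, 11.37 and 11.43 (-0.21, adjusted p 0.415, and -0.28, adjusted p 0.0111, with the block).

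Of 16 cytotoxic granule genes 6 rose and 1 fell, although the list median was 0 to 2 decimals. Gzmb, the caspase-like protease granzyme B, was dim after AI-7-54 at 5.63, 6.03 and 5.99 and lay at 6.81, 6.93, 8.75 and 8.75 after AI-9-54 (1.93 on the log2 scale, limma adjusted p 0.0159, and 0.0599 without AI-7-54 replicate 1). Replicates 1 and 2 alone gave a difference of 1.24 for Gzmb, and replicates 3 and 4 alone 2.74. Serpinb9, the inhibitor that protects cells from granzyme B, rose from 9.12, 9.03 and 9.09 to 9.58, 9.55, 10.00 and 9.77 (1.56-fold, adjusted p 0.000649). The pore-forming protein gene Prf1 (1.38-fold, adjusted p 0.00172) and the granule membrane gene Nkg7 (0.31, adjusted p 0.0012) were also higher, with no overlap between groups in these 3. Gzma, a tryptase-like granzyme, was lower (10.68, 10.64 and 10.59 against 10.22, 10.12, 10.22 and 10.45, adjusted p 0.0122).

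Promoters of the cytotoxic list often held the RUNX site: 12 of the 15 that have a promoter in the reference (80%), against 23.8% of all genes. The stretches below are the 120 bases before the annotated start, shown because they carry that site in a gene that rose strongly (Gzmb), one that rose (Nkg7), one that was not called (Gzmc) and the gene with the largest fall (Bex6). They are taken from RefSeq, GRCm38.p6, 5′ to 3′ on the gene's strand, with the site or its reverse complement in capitals.
Gzmb: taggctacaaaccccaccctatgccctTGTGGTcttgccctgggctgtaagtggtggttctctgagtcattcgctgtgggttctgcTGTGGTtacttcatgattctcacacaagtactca
Nkg7: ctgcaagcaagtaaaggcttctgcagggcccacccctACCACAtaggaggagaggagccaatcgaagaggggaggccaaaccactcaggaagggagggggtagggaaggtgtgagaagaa
Gzmc: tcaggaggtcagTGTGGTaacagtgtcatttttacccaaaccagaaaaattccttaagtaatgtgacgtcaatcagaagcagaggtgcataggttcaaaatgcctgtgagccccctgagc
Bex6: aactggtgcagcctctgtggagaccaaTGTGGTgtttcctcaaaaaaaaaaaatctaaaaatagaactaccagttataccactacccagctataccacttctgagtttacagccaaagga
They lie at chr14:56262335-56262454 (minus strand, Gzmb), chr7:43437018-43437137 (plus, Nkg7), chr14:56234658-56234777 (minus, Gzmc) and chr16:32179680-32179799 (plus, Bex6). The sites begin 93 and 34 bases before the start in Gzmb, 83 in Nkg7, 108 in Gzmc and 93 in Bex6. Among the 12 list members with the site, Gzmb, Prf1, Srgn, Serpinb9 and Nkg7 were called higher and Gzma lower. Gzmc, Gzmd, Gzmf, Gzmg, Gzmm and Lamp1 were not called. Serpinb6b, without the site, was called higher. Gzmc differed by -0.09 (limma adjusted p 0.375) at a level of 4.44 to 4.71 on the 7 arrays, below the array medians. Bex6, from outside the list, fell. The role of the site was not tested. The list was singled out for its share of sites after that share had been seen, and several granzyme genes are related copies in 1 cluster, so their promoters are not independent.

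FOXO transcription factors promote quiescence and stress resistance when growth factor signalling is low. Of 26 measured FOXO factors, targets and quiescence genes, 15 were higher and none lower after AI-9-54 (median 0.28), against 6.87% of all genes higher. Arrdc3, an arrestin-domain gene that restrains glucose uptake and receptor signalling, rose from 9.94, 9.98 and 9.87 to 11.41, 11.43, 11.43 and 11.30 (2.76-fold, limma adjusted p 1.56e-07). Sesn3, a sestrin that inhibits mTORC1, was at 10.70, 10.59 and 10.58 and at 11.26, 11.32, 11.35 and 11.34 (1.62-fold, adjusted p 1.4e-06). Foxo1 itself lay at 9.79, 9.72 and 9.80 after AI-7-54 and at 10.23, 10.23, 10.47 and 10.50 after AI-9-54 (0.59, adjusted p 0.000578). All 3 genes had every AI-9-54 array above every AI-7-54 array. The atypical cyclin gene Ccng2 (1.59-fold, adjusted p 0.00941) and the ubiquitin ligase gene Fbxo32 (1.57-fold, adjusted p 0.00221) were higher, as were Foxo3 (0.31, adjusted p 0.0071), the arrestin relative Txnip (0.40, adjusted p 8.11e-05), the antiproliferative gene Btg1 (0.44, adjusted p 0.00269) and the phosphoinositide 3-kinase inhibitor gene Pik3ip1 (0.28, adjusted p 0.00649). Foxo1, Foxo3, Txnip, Btg1 and Pik3ip1 were singled out from the list after their values were seen. Leaving out 1 array gave 12 to 16 genes higher.

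Of 17 BCL2-family genes 1 was called higher, near the 6.87% of all genes. This was Bcl2l11, a FOXO target that encodes the death activator BIM. It was at 9.08, 9.17 and 8.96 after AI-7-54 and at 9.73, 9.72, 9.76 and 9.74 after AI-9-54 (1.59-fold, limma adjusted p 7.85e-06). The survival genes Bcl2 (-0.04, adjusted p 0.826) and Mcl1 (0.08, adjusted p 0.432) were not called. The pro-death genes Bak1 (-0.29, adjusted p 0.038) and Bid (-0.25, adjusted p 0.0282) were lower, and neither call held without any single one of the 3 AI-7-54 arrays or AI-9-54 replicates 1 and 2. The cell-cycle inhibitor gene Cdkn1a followed the replicates (10.40, 9.73 and 9.71 against 10.42, 10.41, 9.91 and 9.70, adjusted p 0.819). Of 30 p53 pathway genes, 7 were higher and 4 lower (4 and 1 without AI-7-54 replicate 4, and 2 lower without AI-7-54 replicate 3), with the nuclease gene Aen at -0.54 (adjusted p 0.00713).

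Of 28 genes of G1 progression 8 fell and 4 rose. The D-type cyclin gene Ccnd3, the main one of immature T cells, was at 11.40, 11.26 and 11.28 and at 10.80, 10.77, 10.89 and 10.87 (1.39-fold lower, limma adjusted p 0.000266). E2f4 (1.42-fold, adjusted p 9.76e-06), Tfdp1 (1.36-fold, adjusted p 3.85e-05) and E2f1 (1.34-fold, adjusted p 0.000765) were lower. The pocket protein genes Rbl2 (1.34-fold, adjusted p 9.22e-05) and Rb1 (1.2-fold, adjusted p 0.00452), which hold E2F factors inactive, were higher. Of 51 DNA replication genes 16 were lower and none higher (median -0.18), among them the polymerase epsilon subunit gene Pole2 (1.49-fold, adjusted p 0.000473) and the polymerase delta subunit gene Pold2 (1.39-fold, adjusted p 0.000211). Of 56 mitosis and spindle genes none was called in either direction by limma (median -0.10). With the replicate block 5 were lower and 2 higher, with the replicate set in the model 9 and 2, and without AI-9-54 replicate 4, 3 were lower.

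Myc and most genes of ribosome biogenesis were lower. Myc was at 12.15, 11.91 and 11.96 after AI-7-54 and at 11.67, 11.69, 11.26 and 11.32 after AI-9-54 (1.43-fold, limma adjusted p 0.00573), with no overlap. Its partner gene Max was 1.21-fold lower (adjusted p 0.00541), and Mxd4, which competes with MYC for MAX, was 1.3-fold higher (adjusted p 0.00555). Of 54 ribosome biogenesis factors 49 were lower and none higher (median -0.44), against 7.29% of all genes lower, and the count was 44 to 49 with 1 array left out. Rrp12, a pre-ribosome export factor, fell from 9.08, 8.99 and 8.93 to 8.15, 8.28, 8.00 and 7.95 (1.87-fold, adjusted p 2.52e-05). Nop2, an rRNA methyltransferase, went from 11.24, 11.27 and 11.22 to 10.46, 10.45, 10.52 and 10.55 (1.68-fold, adjusted p 3.3e-06), and Bysl, a small-subunit factor, was 1.67-fold lower (adjusted p 5.2e-05). The groups were separated in all 3.

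The E-box CACGTG, to which MYC and MAX bind, was found on 20.8% of 48 ribosome biogenesis promoters, on 14.5% of the promoters of genes called lower, on 11.9% of those called higher and on 9.19% of all. Counting only bases before the start, the shares were 11.3% for genes called lower, 10.4% for those called higher and 7.83% for all. The share of the E-box varied among lists of either direction. It was 29.3% for autophagy and the lysosome, 21.7% for the integrated stress response and 9.52% for FOXO and quiescence, with more genes called higher than lower. With more genes called lower, it was 28.6% for RNA polymerase III, 25% for translation factors, 23.1% for sterol synthesis and 20.9% for DNA replication. It was 20.8% for mitochondrial import, 8.06% for mitochondrial ribosomal proteins and 7.69% for the proteasome, also with more called lower. The role of the E-box was not tested. The 120 bases before the start of Nop2 (chr6:125131763-125131882, plus strand, RefSeq, GRCm38.p6) are shown as the example, with the E-box, which begins 60 bases before the start, in capitals.
Nop2: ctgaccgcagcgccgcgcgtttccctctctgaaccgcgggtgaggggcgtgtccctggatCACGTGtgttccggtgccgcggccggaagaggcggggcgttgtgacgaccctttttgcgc
A match is a description of the letters and not evidence of binding. It reads the same on both strands, and genes without it fell too: 38 of the 48 do not hold it, while 5 of the 54 were not called.

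RNA polymerase I, which makes the rRNA precursor, had 7 of 16 genes lower and none higher. Its second largest subunit gene Polr1b was at 10.07, 10.02 and 10.01 and at 9.20, 9.29, 9.18 and 9.19 (1.76-fold lower, limma adjusted p 1.24e-05), and the largest subunit gene Polr1a was 1.52-fold lower (adjusted p 3.05e-06). Of 20 genes of RNA polymerase III, 4 were lower and 1 higher (2 lower with the replicate block, or without AI-7-54 replicate 3 or 4 or AI-9-54 replicate 2 or 4), with Polr3d at -0.50 (adjusted p 0.000731). Structural genes of the cytosolic ribosome moved much less: 12 of 60 were lower and none higher (median -0.05), and the count was 5 without AI-7-54 replicate 3. The largest was Rps27l, a ribosomal protein that p53 induces (1.46-fold, adjusted p 0.000204), followed by Rpl34 and Rpl5, of which Rpl5 went from 7.86, 7.88 and 7.83 to 7.28, 7.43, 7.42 and 7.52. Ribosomal protein genes have many processed copies, so probe sets may be shared between them. Translation factors were lower in 16 of 46 (9 without AI-7-54 replicate 3 or 4), for example Eif2b3 (1.34-fold, adjusted p 2.73e-05). The single one called higher was the eIF2 kinase gene Eif2ak3, which encodes PERK, at 10.34, 10.22 and 10.34 against 11.09, 11.14, 11.25 and 11.24 (1.84-fold, adjusted p 1.17e-06).

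Of 24 genes for nucleotide synthesis 17 fell and none rose (median -0.37). Cad, which carries out the first steps of pyrimidine synthesis, was at 10.61, 10.67 and 10.68 after AI-7-54 and at 9.82, 9.84, 9.90 and 9.95 after AI-9-54. The purine enzymes Gart (11.26, 11.37 and 11.35 against 10.59, 10.62, 10.63 and 10.66, limma adjusted p 1.12e-06) and Atic (1.59-fold lower, adjusted p 3.13e-06) followed. In each of these the highest AI-9-54 array lay below the lowest AI-7-54 array. One-carbon genes that feed this pathway in the cytosol fell too. Mthfd1 was at 10.92, 11.04 and 11.04 and at 10.01, 10.01, 10.09 and 10.21 (1.9-fold lower, adjusted p 1.4e-06), and Shmt1 was 1.84-fold lower (adjusted p 3.55e-06). The mitochondrial serine carrier gene Sfxn1 was 1.52-fold lower (adjusted p 5.5e-05). Of 21 genes of the serine, one-carbon and asparagine list 6 were lower and none higher (2 higher with the replicate block). Asns, the asparagine synthetase that ATF4 induces, followed the replicate sets (11.12, 10.50 and 10.48 against 11.30, 11.25, 10.69 and 10.57, adjusted p 0.655).

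Of 14 polyamine genes 4 were lower and 1 higher. Srm, the spermidine synthase gene, was at 11.63, 11.67 and 11.57 and at 10.60, 10.67, 10.64 and 10.69 (1.96-fold lower). The salvage gene Mtap (1.34-fold lower, limma adjusted p 2.13e-05), the deoxyhypusine synthase gene Dhps (1.24-fold, adjusted p 0.00679) and its substrate gene Eif5a (1.22-fold, adjusted p 0.00288) were lower. Sat1, which acetylates polyamines for breakdown and export, was higher (1.31-fold, adjusted p 0.00534).

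Genes of the mitochondrial protein machinery were mostly lower among those called. Of 71 mitochondrial ribosomal protein genes 41 were lower and none higher (median -0.22), and 26 were lower without AI-7-54 replicate 3. The alternative fit with the fewest gave 18. Mrpl42 went from 9.71, 9.71 and 9.64 to 8.92, 9.09, 9.20 and 9.21 (1.5-fold, limma adjusted p 0.000133), and Mrps28 from 8.57, 8.68 and 8.63 to 8.05, 8.01, 8.14 and 8.03 (1.49-fold, adjusted p 0.000162). Of 27 import genes 13 fell and none rose (median -0.22), and 8 fell in the alternative fit with the fewest. The 13 include the intermembrane chaperone genes Timm9 (1.52-fold, adjusted p 0.00127) and Timm10 (1.4-fold, adjusted p 8.61e-05) and the outer-membrane pore gene Tomm40 (1.37-fold, adjusted p 0.00191). Of 16 mitochondrial aminoacyl-tRNA synthetase genes 7 were lower and 1 higher (4 lower without any single AI-7-54 array or AI-9-54 replicate 1, and 0 higher without AI-7-54 replicate 3), with Aars2 at -0.62 (adjusted p 8.58e-05).

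Of 70 genes of the respiratory chain and ATP synthase 32 fell and none rose (median -0.18). Without AI-7-54 replicate 4 the count was 21, and the alternative fit with the fewest gave 14. Uqcrq of complex III was at 8.90, 8.77 and 8.66 and at 8.01, 7.99, 8.09 and 8.19 (1.63-fold lower, limma adjusted p 2.08e-05). Atp5e, the epsilon subunit of the ATP synthase, was 1.53-fold lower (adjusted p 0.000162), and Cycs, the cytochrome c gene, 1.51-fold lower (adjusted p 2.94e-05). Of 22 genes of the tricarboxylic acid cycle and its cytosolic relatives 7 were lower (3 without AI-7-54 replicate 3 or 4 or AI-9-54 replicate 2, and 4 without AI-9-54 replicate 1), with Idh1, the cytosolic isocitrate dehydrogenase, at 10.38, 10.53 and 10.39 against 9.68, 9.73, 9.93 and 9.86 (1.56-fold, adjusted p 0.000199). Of 26 glycolysis genes 2 were higher and 2 lower, near the shares of all genes (6.87% and 7.29%). Either count fell to 1 without AI-7-54 replicate 3 or 4 or AI-9-54 replicate 1 or 2.

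Sterol synthesis genes were lower in 14 of 16 in every fit with 1 array left out. Sqle, the squalene epoxidase gene, was at 10.94, 11.18 and 11.14 and at 9.71, 9.70, 9.86 and 9.93. Fdft1, the squalene synthase gene, was 1.98-fold lower (limma adjusted p 1.02e-05) and Cyp51, the lanosterol demethylase gene, 1.88-fold lower (adjusted p 1.94e-05). Of the genes for their regulators, Srebf2 was lower (11.37, 11.43 and 11.47 against 11.02, 11.07, 11.15 and 11.12, adjusted p 0.000425), and Srebf1 was not called (difference 0.00 to 2 decimals, adjusted p 0.993). Insig1, which retains SREBP in the endoplasmic reticulum, was 1.4-fold lower (adjusted p 0.000832). The very low density lipoprotein receptor gene Vldlr rose 2.12-fold (adjusted p 0.000551) and the lysosomal cholesterol exporter gene Npc1 1.25-fold (adjusted p 0.000567).

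Fatty acid synthesis was lower in 7 of 16 and higher in none. The desaturase gene Scd1 went from 10.26, 10.41 and 10.36 to 9.32, 9.40, 9.66 and 9.50 (1.83-fold, limma adjusted p 0.000798), and the synthase gene Fasn from 12.07, 12.03 and 12.03 to 11.47, 11.49, 11.53 and 11.54 (1.45-fold, adjusted p 3.62e-06). Outside that list Aacs, which channels ketone bodies into lipid synthesis, was 1.67-fold lower (adjusted p 5.98e-06). Of 14 LXR targets and lipid export genes, 2 were higher and 4 lower. The sterol exporter gene Abcg1 was 1.54-fold higher (adjusted p 1.26e-05) and the LXR-alpha gene Nr1h3 1.27-fold higher (adjusted p 0.00888), while the haem-sensing repressor gene Nr1d1 was 1.49-fold lower (adjusted p 8.33e-06).

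The integrated stress response, in which eIF2 kinases slow translation and favour ATF4, showed 12 of 28 regulators and targets higher and none lower (median 0.32). The count was 7 without AI-7-54 replicate 4 and 19 with the replicate set in the model. The 12 include Sesn3, Bcl2l11 and Vldlr, already named above with other groups of genes, so these are not separate observations. Ddit3, the death-linked factor CHOP, was at 9.07, 8.90 and 8.90 after AI-7-54 and at 10.69, 10.74, 10.12 and 10.03 after AI-9-54. Atf5 was at 8.17, 8.19 and 8.01 and at 9.33, 9.38, 9.18 and 9.01, and Trib3, which restrains AKT and ATF4, at 7.71, 7.57 and 7.41 and at 8.68, 8.80, 8.19 and 8.02 (1.81-fold, limma adjusted p 0.00766). All AI-9-54 arrays exceeded all AI-7-54 arrays in the 3 genes, with the higher values on replicates 1 and 2. Atf4 was not called (0.31, adjusted p 0.237) but was with the replicate block (0.25, adjusted p 0.00733). The glutathione-degrading gene Chac1 split by replicate set in both groups (8.65, 7.50 and 7.45 against 9.42, 9.39, 8.38 and 8.30, adjusted p 0.161).

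Slc7a11, which imports cystine in exchange for glutamate, was at 8.88, 7.53 and 7.64 after AI-7-54 and at 10.62, 10.62, 10.19 and 10.09 after AI-9-54 (limma adjusted p 0.00383). The groups did not overlap, although AI-7-54 replicate 1 lay well above the other AI-7-54 arrays. As the mean over its 2 probe sets, both higher, Slc7a11 differed by 1.24, against 2.36 for the probe set kept. Its promoter (chr3:50443614-50443733, minus strand, RefSeq, GRCm38.p6, the 120 bases before the start) holds the C/EBP-ATF element TGATGNAA once on each strand, 66 and 47 bases before the start, shown in capitals.
Slc7a11: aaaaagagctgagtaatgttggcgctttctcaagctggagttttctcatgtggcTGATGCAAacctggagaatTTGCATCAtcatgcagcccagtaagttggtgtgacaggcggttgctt
This element was found in 8 of 23 promoters of the integrated stress response list (34.8%) and in 3.92% of all promoters, but in 2.68% of those of genes called higher and 1.7% of those called lower. Among the 8, Trib3 and Vldlr were called higher, while Chac1, Herpud1 (0.53, adjusted p 0.216), Nupr1 (0.24, adjusted p 0.127), Atf3 (-0.05, adjusted p 0.741), Gadd45g (0.03, adjusted p 0.792) and Fgf21 (-0.01, adjusted p 0.952) were not. Of 27 amino acid transporters 7 were higher and 2 lower. The 7 became 2 without AI-7-54 replicate 4 and 4 without AI-7-54 replicate 3 or AI-9-54 replicate 1 or 3. The carrier gene Slc7a8 was 1.48-fold lower (adjusted p 0.000445). Of 20 cytosolic aminoacyl-tRNA synthetase genes, often induced with ATF4, 8 fell and 1 rose, while 11 had a positive and 9 a negative difference. Wars was 1.34-fold lower (adjusted p 0.000178). The 1 rise was lost without AI-7-54 replicate 3 or 4, AI-8-45 replicate 4 or AI-9-54 replicate 1 or 2.

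In glutathione and thioredoxin metabolism under NRF2, 10 of 40 genes rose and 5 fell (median 0.12). The rate-limiting glutathione synthesis gene Gclc was at 10.90, 10.78 and 10.76 and at 11.29, 11.31, 11.48 and 11.39 (1.47-fold, limma adjusted p 0.000387), and the glutathione conjugate exporter gene Abcc1 was 1.37-fold higher (adjusted p 0.00229). The glutathione transferase gene Gstp1 (1.39-fold, adjusted p 0.00111) and the peroxidase gene Gpx1 (1.37-fold, adjusted p 0.000244) were lower. Nfe2l2, which encodes NRF2, was not called (0.01, adjusted p 0.962). The antioxidant response element TGACNNNGC was found in 10 of 34 promoters of the list (29.4%) and in 14.9% of all. The sterol synthesis list, mostly called lower, held it in 4 of 13 (30.8%).

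Heat shock factor 1 targets were lower in 9 of 30 and higher in none, and in 5 without AI-7-54 replicate 3 or 4. Hspa1b, an inducible HSP70 gene, fell from 8.85, 9.05 and 8.43 to 7.05, 7.34, 7.27 and 7.55. Its 120 upstream bases (chr17:34959239-34959358, minus strand, RefSeq, GRCm38.p6) are shown because they hold the heat shock element GAANNTTC, in capitals, which begins 104 bases before the start.
Hspa1b: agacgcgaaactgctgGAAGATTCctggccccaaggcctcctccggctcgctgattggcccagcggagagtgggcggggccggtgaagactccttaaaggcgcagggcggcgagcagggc
The element was found in 11 of 25 promoters of the list (44%) and in 8.18% of all, with 6.96% of genes called higher and 6.34% of those called lower. Hspa1a, a near-identical neighbour whose separate value is uncertain, differed by -0.41 (limma adjusted p 0.0214). The HSP90 co-chaperone gene Fkbp4 was 1.52-fold lower (adjusted p 0.000702). The chaperonin and prefoldin list was lower in 8 of 15 and higher in none, with Pfdn6 1.4-fold lower (adjusted p 0.00494) and Cct8 1.34-fold lower (adjusted p 0.00144). Proteasome genes were lower in 18 of 46 (7 with replicates 3 and 4 alone), led by the assembly chaperone gene Psmg2 (-0.56, adjusted p 2.73e-05), of whose 2 probe sets 1 had this sign. In the endoplasmic reticulum, 5 of 29 genes were higher and 7 lower (3 higher without AI-7-54 replicate 1), with the stress sensor gene Atf6 at 0.31 (adjusted p 0.00643) and Wfs1, the wolframin gene, 1.7-fold lower (adjusted p 0.000684).

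Of 47 genes for autophagy and the lysosome, 12 rose and 1 fell. The fall, of Atg7, was not called with the replicate block or without any single AI-7-54 array or AI-9-54 replicate 1, 2 or 4, and 2 genes fell without AI-9-54 replicate 3. Tecpr1, which joins autophagosomes to lysosomes, was at 8.88, 8.72 and 8.74 and at 9.45, 9.53, 9.43 and 9.33 (1.57-fold, limma adjusted p 0.000207). The kinase gene Ulk2 (1.35-fold, adjusted p 0.00696) was higher too, without overlap. The mitophagy kinase gene Pink1, outside that list and named after its value was seen, was higher by 0.38 (adjusted p 0.000232).

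Both main metallothionein genes and several glucocorticoid receptor targets rose. Mt2 went from 10.06, 9.87 and 9.78 to 11.03, 10.89, 10.82 and 10.76 (1.96-fold, limma adjusted p 5.98e-06) and Mt1 from 9.51, 9.53 and 9.43 to 10.31, 10.30, 10.24 and 10.06 (1.67-fold, adjusted p 8.33e-06). The zinc importer gene Slc39a10, which zinc represses, fell from 9.11, 9.20 and 9.27 to 8.01, 8.17, 8.39 and 8.44 (1.92-fold, adjusted p 4.2e-05). Of 17 glucocorticoid receptor targets 7 were higher and 1 lower, including the metallothioneins. Tat, the tyrosine aminotransferase gene, was at 6.18, 6.89 and 6.67 and at 7.50, 7.76, 10.01 and 9.81 (adjusted p 0.0183, and up to 0.0721 without AI-7-54 replicate 1 or 4). The receptor gene Nr3c1 (0.40) and the leucine zipper gene Tsc22d3 (0.50) were higher and the co-chaperone gene Fkbp5, a standard target, was lower (-0.23, adjusted p 0.0034). The phosphatase gene Dusp1 was higher (1.43-fold, adjusted p 0.00375). Of 23 genes of the EGR, NR4A and ERK feedback list, 4 were lower and 2 higher, Dusp1 among the latter. The 2 became 5 without AI-7-54 replicate 1, and 1 without AI-7-54 replicate 3 or 4, any AI-8-45 array or AI-9-54 replicate 2 or 3. The lower ones included Etv5 (1.45-fold, adjusted p 0.0101), Spry1 (1.43-fold, adjusted p 0.000631) and Dusp7 (1.4-fold, adjusted p 0.000418).

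Cytokine and immune signalling lists were mixed. Of 30 interferon-response genes 11 rose and 3 fell (median 0.18), and 5 were higher without AI-7-54 replicate 3 or 4. The guanylate-binding protein gene Gbp4 was at 7.83, 7.60 and 7.37 and at 8.55, 8.63, 8.76 and 8.77 (2.11-fold, limma adjusted p 2.13e-05) and Irf1 was 1.44-fold higher (adjusted p 0.00153). Usp18, which blunts interferon receptor signals, was 1.26-fold lower (adjusted p 0.00404), and Mx1 (0.03), Oas2 (-0.02), Ifit3 (-0.06) and Rsad2 (-0.05) were not called. Of 17 NF-kB genes 5 rose and 1 fell (3 higher without AI-7-54 replicate 3 or 4 or AI-9-54 replicate 1 or 2, and 2 lower with the replicate block). The inhibitor gene Nfkbie had the largest difference of that list, from 10.77, 10.85 and 10.83 down to 9.85, 9.90, 9.66 and 9.79 (2.03-fold, adjusted p 7.69e-07), and Nfkb2 was 1.28-fold higher (adjusted p 0.00808).

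In the TGF-beta pathway the inhibitory gene Smad7 rose from 8.84, 8.77 and 8.74 to 9.62, 9.68, 9.81 and 9.75 (1.91-fold, limma adjusted p 9.54e-07), and the ligand gene Tgfb3 fell from 9.21, 9.02 and 9.11 to 8.13, 8.05, 8.41 and 8.45 (1.81-fold, adjusted p 0.000465). The list had 5 of 22 genes higher and 1 lower, with 2 higher without AI-7-54 replicate 3 or 4 and 2 lower with the replicate block. Of 20 hypoxia-inducible genes 8 rose and 1 fell, and 3 were higher without AI-7-54 replicate 3 and 4 without AI-7-54 replicate 4. Hif1a went from 11.30, 11.47 and 11.39 to 11.79, 11.78, 11.93 and 11.98 (1.4-fold, adjusted p 0.000392) and Vegfa from 8.88, 8.77 and 8.69 to 9.30, 9.29, 9.50 and 9.31 (1.49-fold, adjusted p 0.000586). The prolyl hydroxylase gene Egln3, itself a hypoxia target, was lower (1.25-fold, adjusted p 0.000798). Among homing receptors, P2ry10, a lysophospholipid receptor, was 1.93-fold higher (adjusted p 1.35e-05) and Rgs1, which damps chemokine signals, 1.84-fold higher (adjusted p 0.000164). Ccr8 was 1.74-fold lower (adjusted p 0.000187) and Cxcr4, the receptor that holds leukaemia cells in the bone marrow, went from 11.43, 11.54 and 11.49 to 10.99, 10.98, 11.10 and 11.16 (1.35-fold lower, adjusted p 0.000254). Of 23 homing genes 6 were higher and 2 lower, and 3 were higher without AI-7-54 replicate 3 or 4 or AI-9-54 replicate 3.

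Of 32 measured genes in the ABC transporter list, which also holds the Abcb1 neighbour Rundc3b, 10 were higher and 5 lower (3 lower without AI-7-54 replicate 3). Beside the Abcb1 run, Abcc5 (0.32), Abcc10 (0.32), Abcc1 and Abcg1 were higher, and the cyclic nucleotide exporter gene Abcc4 was lower (9.58, 9.51 and 9.47 against 9.02, 9.03, 9.12 and 9.09, limma adjusted p 0.000475). Abcg2, another drug efflux gene, differed by -0.03 and was not called. Among genes of the aryl hydrocarbon receptor pathway, Cyp1b1 was lower by -0.74 (adjusted p 9.8e-06), with its AI-9-54 mean below the array medians. Ahr itself was lower by -0.34 (adjusted p 0.0144, lost without AI-7-54 replicate 1 at 0.0635).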

How the data were processed

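Total RNA of 11 samples was hybridised to Affymetrix whole-transcript arrays after RNeasy extraction, Ambion WT amplification and biotin labelling, as the labels' protocols state. The deposited log2 values were made by the authors with RMA and Partek 6.6, per the submitters' processing notes; the sources used here name no genome build. They range from 3.23 to 13.8, with array medians of 6.61 to 6.68, and their number limits the precision. No detection calls were used; folds are left out where the lower mean lay below 6.61.

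Of 41345 probe sets, 23521 had 1 symbol, 1814 several and 16010 none here; 23328 symbols were updated through a gene table of GRCm38.p6. For the 22180 genes the brightest probe set on average was kept (1082 had several; of 207 called genes with several, all probe sets had 1 sign in 152). All 11 arrays entered 1 linear model in limma 3.58.1 (R 4.3.3, moderated by eBayes; 8 residual and 4.14 prior degrees of freedom), two-sided, with Benjamini-Hochberg adjustment over all genes. In simulated data for this comparison over 22180 genes, 34%, 92%, 100% and 100% of changes of 0.25, 0.5, 1 and 2 were recovered and 5.78% of calls were false. Far fewer genes were changed there than were called here, and the noise was independent between arrays and genes, with no replicate-set split. These rates therefore need not hold for the measured data. Figures used matplotlib 3.10.9.

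The members and the 67 lists (1649 of 1827 entries resolved) were chosen with earlier results of these data known. Named genes were the 15 largest called differences per direction without overlap, up to 4 called per list and direction, and regulators such as Runx1 and Myc, predicted and receptor-segment symbols left out; other genes, such as the Abcb1 neighbours, Nkg7, Gzmc, Asns and list members given as not called, were chosen after their values were seen. Replicate numbers come from the titles. Same-numbered arrays of the compounds deviated together from their group means over all genes (r = 0.14, 0.16 and 0.12 for numbers 1, 3 and 4). The replicate number as a block is an alternative fit. Some arrays of different numbers in the same replicate set correlated more (0.32 for AI-7-54 replicate 1 with AI-9-54 replicate 2, and 0.24 for 3 with 4), and 4 with 3 less (0.04). By that measure the number cannot be said to pair the samples, as the replicate set is shared too.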

Additional observations from a re-analysis of the deposited data

Results flagged for a closer look

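Among the 4 AI-9-54 arrays, 1 lay far from the other 3 for 10 genes and 1 list mean, by Dixon's ratio at the 95% level, and 367 groups were looked at; chance flags about 1 in 20 groups. The lowest array was replicate 1 for Spry1 (7.69), Dusp7 (8.22) and Npc1 (10.29), replicate 2 for Zfas1 (12.4) and replicate 4 for Arrdc3 (11.3). The highest was replicate 2 for Polr1b (9.29), Uhrf2 (10.7), Srebf1 (9.23) and the mean of the mitochondrial aminoacyl-tRNA synthetase list (8.96), and replicate 3 for Jak2 (11.29) and Vegfa (9.50).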

How the results depend on the processing

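For AI-9-54 against AI-7-54, called genes numbered 3139 and stayed within 1.5 times of that under all 23 alternatives run: 2103 to 3290 with 1 array left out, and 2189 (replicates 3 and 4 only) to 4036 (replicate set in the model) otherwise. The genes called were less stable than their number: 1729 of the 3139 were called in all 11 fits with 1 array left out. Centring each array on its median gave 2742 and quantile normalization 3270. With the replicate number as a block, 3297 genes were called, and 2792 of the 3139 were among them. The pairing check did not settle whether the number or the replicate set is the better block. Of the named genes the block added Runx1, Notch1 and Atf4 and ended the calls of 8: Ier3, Iigp1, Cpt1a, Smpd4, Polr3k, Polr3a, Atg7 and Bid (adjusted p 0.0554 to 0.104). Of 288 named genes called, 193 kept their call under every alternative. One direction turned: the non-coding RNA gene Zfas1, higher by 0.28, was lower by -0.43 (adjusted p 0.00237) as the mean over its probe sets. All signs agreed within replicates 1 and 2 and within 3 and 4 for the called genes, which the lack of overlap in most of them fixes in advance. Because no background level was used, dim genes such as Gzmb and Tat have differences on the log2 scale only. Medians near 0 changed sign with quantile normalization for the cytotoxic, TAL1, EGR and acyl-CoA thioesterase lists. Centring each array on its median turned those of the acyl-CoA thioesterase, cytosolic aminoacyl-tRNA synthetase and DNA methylation lists.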
